A study of Mus musculus with 8 samples.

Results

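A group of 10 genes of the intestinal epithelium that respond to interleukin-22 (IL-22) or to microbes were followed in RNAseq of isolated intestinal epithelial cells (IECs). They were chosen by gene name from the 40178 genes of the 2 deposited count tables, and each of the 10 symbols matched 1 row. The members and the gene lists below were chosen with earlier results of these data known. By role they were the receptor subunit Il22ra1 and the feedback inhibitor Socs3, the antimicrobial lectins Reg3b and Reg3g, the secreted proteins Saa1, Saa2 and Lcn2, and the oxidant-producing group Nos2, Duox2 and Duoxa2. Colon and ileum were taken from 2 WT and 2 DDX5ΔIEC mice, which gave 8 libraries, 2 in each group. WT mice carried Ddx5 +/+ with Villin1Cre, and DDX5ΔIEC mice carried Ddx5 fl/fl with the same Cre, so the Cre transgene was present in all 4 mice. The Villin1 promoter drives Cre in the epithelium of the intestine, and other cells of the preparation keep DDX5, an RNA helicase. The mice were untreated and aged 8 weeks per the labels, and the ileum was the distal part of the small intestine. The paper describes 2 independent pairs of cohoused littermates, with both genotypes in a pair. The labels do not say which mice form a pair. Epithelium was released with EDTA and not sorted. Within a genotype, equal replicate numbers in the colon and the ileum mark 1 mouse. With 2 mice per group, the p-values below measure only the spread between these mice. The comparison of genotypes asked which epithelial transcripts depend on DDX5 in each tissue.

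IL-22 is made by lymphocytes and innate lymphoid cells of the gut wall and acts on the epithelium, where its receptor pairs Il22ra1 with Il10rb and signals through Jak1, Tyk2 and Stat3. Socs3 is induced by STAT3 and limits the same pathway. Reg3b and Reg3g bind and kill bacteria at the mucosal surface, serum amyloid A proteins carry retinol and lipids, Lcn2 withholds iron-loaded siderophores from bacteria, Nos2 makes nitric oxide, and Duox2 with its maturation factor Duoxa2 makes hydrogen peroxide at the apical membrane. In mice, contact with gut bacteria is a known inducer of several of these genes in the ileum.

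Total raw counts ranged from 11571061 to 22984283 per library. The labels held for the targeted gene, with Ddx5 at 699 and 699 CPM (raw counts scaled by library size to a common total) in WT ileum against 339 and 326 in DDX5ΔIEC ileum, and at 770 and 705 against 367 and 354 in the colon. All 9 epithelial markers were detected in all 8 libraries. The summed level of 6 ileal enterocyte markers was 4425 to 9205 CPM in the ileum and 170 to 340 CPM in the colon, and that of 6 colonocyte markers was 836 to 992 CPM in the ileum and 3487 to 4763 CPM in the colon. DDX5ΔIEC ileum replicate 2 stood apart because 3 repeat-like genes took 19.5% of its counts, against 0.226% to 4.04% in the other ileum libraries. Library sizes for CPM were scaled by the TMM method over all 8 libraries. In bulk samples such as these, fewer cells of a type and less RNA per cell cannot be told apart.

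The members lie at 7 loci of the mouse genome, of which 3 hold a pair of members. In the GENCODE vM21 annotation of GRCm38, Reg3b is at chr6:78370657-78373466 on the plus strand and Reg3g at chr6:78466269-78468872 on the minus strand, with 98215 bases between their starts. Saa1 is at chr7:46740497-46742980 (minus) and Saa2 at chr7:46751790-46754313 (plus), and their starts are 8810 bases apart in opposite orientation. Duox2 is at chr2:122279247-122298449 (minus) and Duoxa2 at chr2:122298900-122302885 (plus), a head-to-head pair whose starts are 451 bases apart. The annotated exons of Duoxa2 overlap those of Duoxa1 on the other strand. Lcn2 is at chr2:32384633-32388252 (minus), Il22ra1 at chr4:135728172-135752140 (plus), Nos2 at chr11:78920787-78960254 (plus) and Socs3 at chr11:117966079-117970047 (minus). The count table carries an earlier version of the Duox2 identifier, so its position there may differ.

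Sequence before the RefSeq start of transcription (GRCm38.p6) was available for 9 of the 10 members, and not for Nos2. The 5 stretches shown were picked because 4 of these genes moved together in the ileum and the fifth, Saa2, is the near copy of one of them. Stretches that run into an annotated exon were shortened. The RefSeq start differs from the GENCODE start for some members. The Reg3b and Socs3 stretches lie inside the GENCODE bounds of these genes given above, outside annotated exons. The Saa1 and Saa2 promoters were 94.8% identical over 251 aligned positions, and capitals mark the bases at which one differs from the other.
Saa1, chr7:46742981-46743230, minus strand: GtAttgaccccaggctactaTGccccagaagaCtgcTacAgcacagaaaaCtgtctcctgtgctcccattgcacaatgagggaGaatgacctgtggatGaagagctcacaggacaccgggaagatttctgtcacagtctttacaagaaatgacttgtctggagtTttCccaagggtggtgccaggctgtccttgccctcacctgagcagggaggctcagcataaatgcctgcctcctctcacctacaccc
Saa2, chr7:46751583-46751789, plus strand: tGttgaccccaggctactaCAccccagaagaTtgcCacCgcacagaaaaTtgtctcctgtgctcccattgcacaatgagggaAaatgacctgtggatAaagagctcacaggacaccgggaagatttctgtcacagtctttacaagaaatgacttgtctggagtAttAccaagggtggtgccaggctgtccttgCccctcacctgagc

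The letters TTCNNNGAA, the core to which STAT factors bind, were searched on both strands, where the motif reads the same. They occurred in the 250 bases before the RefSeq start of 2 of 9 members, Reg3b and Socs3, and in 7.02% of 32851 promoters of that length. In the next stretches, capitals mark the match in Reg3b and Socs3 and, in Reg3g, the bases that align with the Reg3b match. The Reg3b match began 129 bases and the Socs3 match 154 bases before the RefSeq start. Both matches lie within the GENCODE bounds of their genes. The Reg3b and Reg3g promoters were 68.9% identical over 257 aligned positions, and the aligned stretch read TTCTTGGAA in Reg3b and TGATGGGAA in Reg3g. A match is a description of letters and not of binding.
Reg3b, chr6:78370707-78370860, plus strand: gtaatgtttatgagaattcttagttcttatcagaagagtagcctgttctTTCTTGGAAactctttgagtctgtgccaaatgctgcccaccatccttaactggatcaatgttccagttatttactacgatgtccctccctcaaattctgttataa
Reg3g, chr6:78468875-78469124, minus strand: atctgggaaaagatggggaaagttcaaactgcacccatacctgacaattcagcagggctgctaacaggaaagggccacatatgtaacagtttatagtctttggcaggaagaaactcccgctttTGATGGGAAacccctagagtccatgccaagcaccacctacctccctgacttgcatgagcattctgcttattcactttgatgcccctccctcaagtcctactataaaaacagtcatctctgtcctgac
Socs3, chr11:117969452-117969616, minus strand: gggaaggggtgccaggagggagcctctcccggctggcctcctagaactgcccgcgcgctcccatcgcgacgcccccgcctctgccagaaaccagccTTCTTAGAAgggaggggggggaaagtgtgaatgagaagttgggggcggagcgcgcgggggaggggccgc

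Near copies and overlaps bear on the counts, because only uniquely mapped reads were counted and the strand setting is not known. Of the 50-base words in Saa1 transcripts, 31.5% also occurred in Saa2 or Saa3, and 30.0% of those in Saa2 occurred in Saa1. For Duox2 the share was 6.05%, with Duox1. Of the words in Duoxa2, 41.1% matched Duoxa1, all of them on the other strand, where the exons of the 2 genes overlap, and none matched another gene on the same strand. Duoxa1 stayed at or below 1.07 CPM and Duox1 at or below 2.35 CPM in every library. Il22ra1, Socs3, Reg3b, Reg3g, Lcn2 and Nos2 shared no 50-base word with another gene.

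The order of levels differed between the tissues. Levels per kilobase used the deposited gene length, which merges all annotated exons of a gene. It is 1142 bases for Reg3b, 2114 for Reg3g and 2478 for Saa1, so the values depend on the annotation. In CPM per kilobase, Reg3b was the highest member in WT ileum at 3563 ± 2522 (SD, n = 2). Reg3g at 765 ± 658, Duox2 at 452 ± 20.3 and Duoxa2 at 380 ± 7.13 followed. Il22ra1, Saa1, Nos2 and Socs3 came next at 34.1 ± 1.77, 26.6 ± 21.2, 22.7 ± 23.6 and 10.2 ± 6.73, and each of these overlapped the next one between libraries. Reg3g also overlapped Duox2 and Duoxa2, whereas Reg3b lay above Reg3g and Duox2 above Duoxa2 in both WT libraries. In WT colon the highest member was Saa1 at 80.2 ± 2.85, followed by Reg3b at 55.0 ± 46.3, Duox2 at 34.8 ± 2.42 and Duoxa2 at 20.1 ± 0.0356. The range of Reg3b included Saa1 and Duox2 there, whereas Saa1, Duox2 and Duoxa2 were separate from each other. Saa2 was at 0.400 ± 0.0230 in WT colon and 0.165 ± 0.155 in WT ileum.

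Lcn2, which is strongly induced in inflamed mucosa, was near the limit of detection in these untreated mice. Its raw counts were 4 and 1 in WT ileum, 0 and 0 in DDX5ΔIEC ileum, 1 and 1 in WT colon, and 1 and 2 in DDX5ΔIEC colon. A count of 0 allows up to 0.281 and 0.320 CPM in the 2 DDX5ΔIEC ileum libraries, a limit that covers counting error only. No difference between groups was detectable at this depth, and Lcn2 failed the filter on low counts and entered none of the main tests. S100a8 and S100a9, which are abundant in neutrophils, had at most 1 count in any library.

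**Figure D1:**
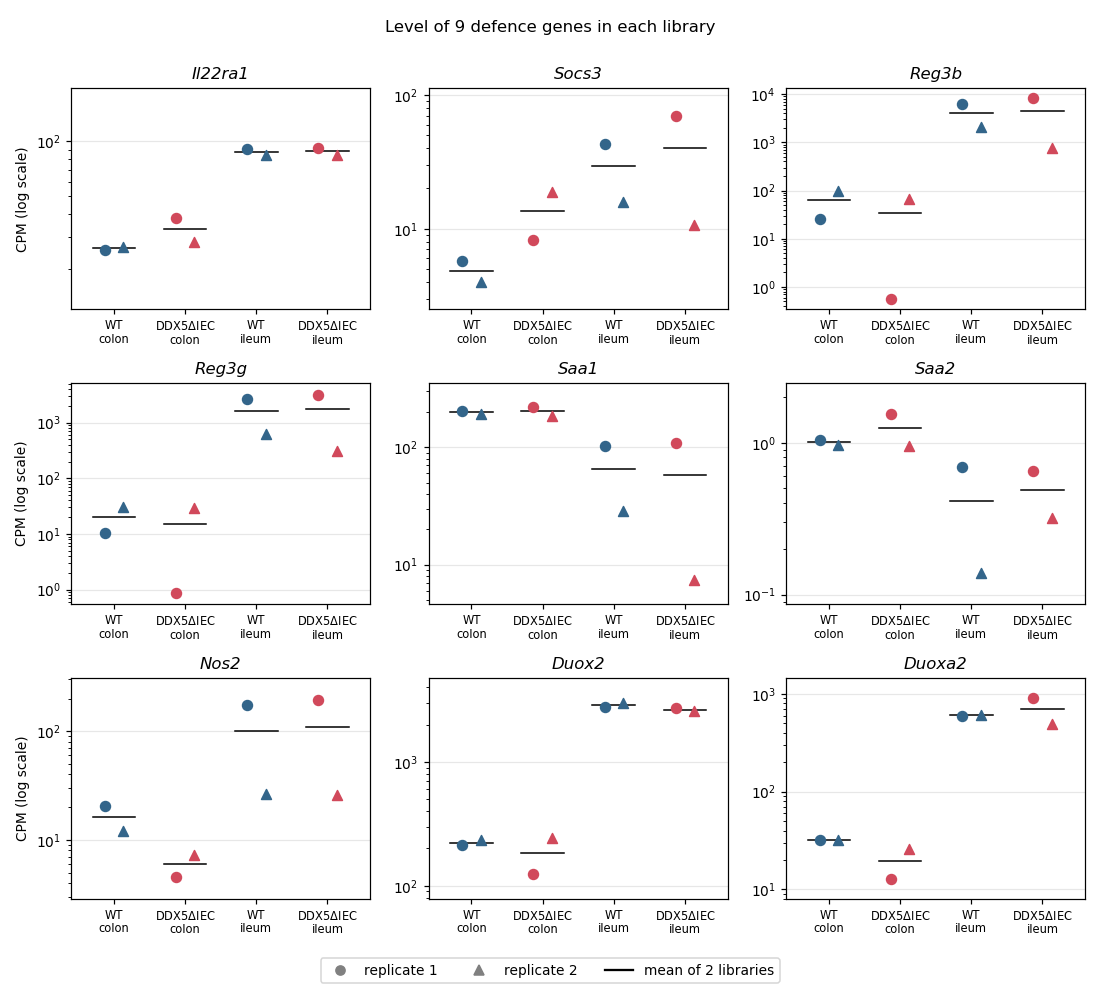
Level of 9 members in each of the 8 libraries, in CPM on a log axis, by group. Circles are replicate 1, triangles replicate 2, and the bar is the mean of the 2 libraries; Lcn2, with at most 4 counts, is not drawn. In the ileum, the circles of Socs3, Reg3b, Reg3g, Saa1 and Nos2 lie above the triangles in both genotypes.

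Duox2 and Duoxa2 were higher in the ileum in both genotypes. Duox2 was at 2800 and 2984 CPM in WT ileum and 2726 and 2571 CPM in DDX5ΔIEC ileum, against 212 and 234 CPM in WT colon and 125 and 244 CPM in DDX5ΔIEC colon. The tissues did not overlap. The log2 fold change of ileum over colon was 3.70 ± 0.31 (SE) in WT and 3.84 ± 0.31 in DDX5ΔIEC, with adjusted p of 6.4e-05 and 5.2e-05 in edgeR's quasi-likelihood test. Duoxa2 was at 596 and 613 CPM in WT ileum, 909 and 493 CPM in DDX5ΔIEC ileum, 32.0 and 31.9 CPM in WT colon and 12.8 and 25.9 CPM in DDX5ΔIEC colon. Its log2 fold change was 4.24 ± 0.38 in WT and 5.17 ± 0.40 in DDX5ΔIEC, with adjusted p of 9.3e-05 and 4.2e-05.

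Reg3b and Reg3g had the widest range of all members. Reg3b was at 6106 and 2033 CPM in WT ileum, 8210 and 777 CPM in DDX5ΔIEC ileum, 25.4 and 100 CPM in WT colon, and 0.551 and 66.9 CPM in DDX5ΔIEC colon. Reg3g was at 2602 and 634 CPM in WT ileum, 3189 and 308 CPM in DDX5ΔIEC ileum, 10.2 and 30.9 CPM in WT colon, and 0.882 and 29.7 CPM in DDX5ΔIEC colon. Every ileum library was above every colon library for both genes. The log2 fold change of ileum over colon in WT was 6.02 ± 1.90 for Reg3b and 6.30 ± 1.68 for Reg3g, with adjusted p of 0.040 and 0.021. In DDX5ΔIEC the values were 7.05 ± 1.99 and 6.83 ± 1.73, with adjusted p of 0.025 and 0.016. With the mouse as a block, adjusted p rose to 0.067 and 0.071 for Reg3b in WT and DDX5ΔIEC and to 0.053 for Reg3g in DDX5ΔIEC.

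The receptor subunit differed less but with little spread. Il22ra1 was at 90.9 and 84.4 CPM in WT ileum, 92.1 and 84.2 CPM in DDX5ΔIEC ileum, 25.5 and 26.6 CPM in WT colon, and 37.9 and 28.3 CPM in DDX5ΔIEC colon. It was higher in the ileum by 1.75 ± 0.15 on the log2 scale in WT and 1.42 ± 0.15 in DDX5ΔIEC, with adjusted p of 6.5e-05 and 0.00018. Its partner chain, the 2 kinases and Stat3 varied less between tissues. The log2 difference in WT was 0.45 ± 0.13 for Il10rb, 0.30 ± 0.10 for Jak1 and 0.58 ± 0.19 for Stat3, with adjusted p of 0.026, 0.043 and 0.045, and 0.08 ± 0.11 for Tyk2, with adjusted p of 0.63. Adjusted p in DDX5ΔIEC was 0.056, 0.083, 0.074 and 0.96 in the same order.

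Socs3 and Nos2 passed the tissue test in 1 genotype each. Socs3 was at 43.3 and 15.7 CPM in WT ileum, 70.0 and 10.7 CPM in DDX5ΔIEC ileum, 5.72 and 4.001 CPM in WT colon, and 8.27 and 18.8 CPM in DDX5ΔIEC colon. Its log2 difference was 2.62 ± 0.84 in WT, with adjusted p of 0.042, and 1.57 ± 0.79 in DDX5ΔIEC, with adjusted p of 0.16. Nos2 was at 174 and 26.2 CPM in WT ileum, 194 and 25.6 CPM in DDX5ΔIEC ileum, 20.5 and 12.05 CPM in WT colon, and 4.58 and 7.33 CPM in DDX5ΔIEC colon. Its log2 difference was 2.63 ± 1.00 in WT, with adjusted p of 0.076, and 4.20 ± 1.10 in DDX5ΔIEC, with adjusted p of 0.019. The difference between genotypes in these tissue effects did not pass for either gene, with interaction p of 0.38 for Socs3 and 0.30 for Nos2 before adjustment.

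The serum amyloid A genes ran the other way without passing the test. Saa1 was at 204 and 194 CPM in WT colon and 220 and 186 CPM in DDX5ΔIEC colon, against 103 and 28.8 CPM in WT ileum and 108 and 7.37 CPM in DDX5ΔIEC ileum. All 4 colon libraries were above all 4 ileum libraries. The log2 difference of ileum over colon was -1.58 ± 0.92 in WT and -1.80 ± 0.93 in DDX5ΔIEC, with p of 0.12 and 0.087 before adjustment by the edgeR test. With the mouse as a block it was -1.84 ± 0.76 and -2.56 ± 0.84, with adjusted p of 0.10 and 0.0504. For Saa2, with 20 to 28 counts in the colon and 2 to 15 in the ileum, it was -1.14 ± 0.60 and -1.31 ± 0.65. Saa1 reads exceeded Saa2 reads 142-fold to 200-fold in the colon, and 23.0-fold to 208-fold in the ileum, where the ratio rests on 2 to 15 Saa2 counts.

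Of the 9 members tested, 6 were higher in the ileum in WT and 6 in DDX5ΔIEC, and none was lower. Of all 16178 genes, 34.2% passed in WT (17.4% higher and 16.8% lower) and 35.3% in DDX5ΔIEC (18% higher and 17.3% lower). Without WT ileum replicate 1, without WT colon replicate 1, or without WT colon replicate 2, the count in WT fell to 3, leaving Il22ra1, Duox2 and Duoxa2. The count in DDX5ΔIEC was 5 to 7 without any 1 of its libraries. With the mouse as a block it was 5 in WT and 4 in DDX5ΔIEC, against 37.7% and 37.8% of all genes. These fits treat a lone library as if it varied like the other groups.

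**Figure D2:**
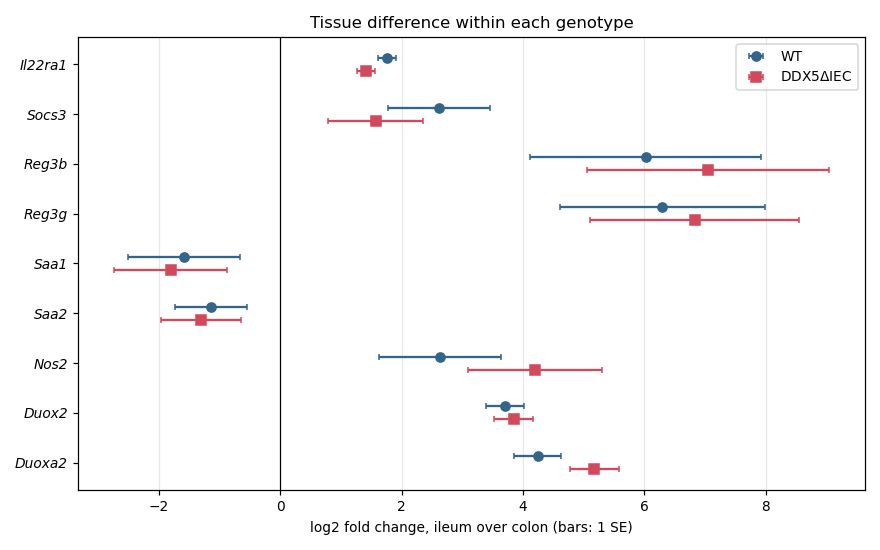
Log2 fold change of ileum over colon for the 9 tested members in WT (circles) and DDX5ΔIEC (squares), from the edgeR fit of 8 libraries, with bars of 1 SE. Duox2, Duoxa2 and Il22ra1 have short bars, and Saa1 and Saa2 are the members with values below 0.

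The ratio of the members of a locus within a library was also read for the lectin and the oxidase pair. Reg3b had 4.17 to 6.004 times the reads of Reg3g per merged exon length in 7 libraries. Without division by length this ratio was 2.25 to 3.24. In DDX5ΔIEC colon replicate 1, which had 10 Reg3b and 16 Reg3g counts, the ratio was 1.16 per length and 0.625 without it. Duox2 had 0.746 to 1.30 times the reads of Duoxa2 per length in the ileum and 1.64 to 2.43 times in the colon, so that every colon library was above every ileum library. Across the 8 libraries the Pearson correlation of log2 CPM was 0.992 for Reg3b with Reg3g and 0.994 for Duox2 with Duoxa2. The 4 ileum and 4 colon libraries form separate clusters, so these values largely describe the tissue difference. By the same measure over 13567 genes, the genes most like Duox2 were Ldb3, Mall, Aldh9a1, Ms4a18 and Tnfaip1 (r from 0.997 to 0.999), and those most like Reg3g were Reg3b, Apol7a, Vnn1, Slc22a5 and Hist1h4a (r from 0.987 to 0.992).

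A set of 5 members differed between the mice of each ileum group more than between the genotypes. Nos2 was 6.63-fold higher in replicate 1 than in replicate 2 of WT ileum and 7.56-fold higher in DDX5ΔIEC ileum. Reg3b was 3.00-fold and 10.6-fold higher, Reg3g 4.10-fold and 10.4-fold, Saa1 3.57-fold and 14.7-fold, and Socs3 2.75-fold and 6.56-fold. For each of these 5 genes, both replicate 1 libraries were above both replicate 2 libraries. The share of all genes with this order was not counted. Of all 14068 genes tested in the ileum, 0.668% were at least 2-fold lower in replicate 2 in both genotypes.

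The replicate number is a term in the model of each tissue, and its size was read after the values had been seen. In edgeR's test the term in the ileum was -2.82 ± 0.15 (log2, replicate 2 over replicate 1) for Nos2, -2.71 ± 0.35 for Saa1, -2.70 ± 0.32 for Reg3g, -2.49 ± 0.41 for Reg3b and -2.04 ± 0.24 for Socs3. Adjusted p was 8.0e-06, 0.0037, 0.0029, 0.018 and 0.0029 in the same order, so that 5 of 8 tested members were lower in replicate 2, against 0.654% of all genes. The count stayed at 5 without the 3 repeat-like genes. Under DESeq2 the count was 3, with adjusted p of 1.0 for Reg3b and 0.16 for Saa1, and the share of all genes was not counted. The methods name a harvest covariate, but the labels do not say that equal numbers mark a shared harvest.

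The other 3 tested members did not follow this pattern in the ileum. The term was -0.11 ± 0.13 for Il22ra1, 0.01 ± 0.25 for Duox2 and -0.42 ± 0.23 for Duoxa2, with p of 0.42, 0.98 and 0.099 before adjustment by the edgeR test. Duoxa2 was at 596 and 613 CPM in WT but 909 and 493 CPM in DDX5ΔIEC ileum. Duox2 was within 1.07-fold between the mice of each genotype in the ileum.

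In the colon of the same mice the lectins ran in the opposite direction. Reg3b was 3.94-fold higher in replicate 2 than in replicate 1 of WT colon and Reg3g 3.02-fold higher. In DDX5ΔIEC colon the ratios were 121 and 33.7, on 10 and 16 counts in replicate 1. The term was 3.50 ± 0.99 for Reg3b and 2.82 ± 0.74 for Reg3g, with adjusted p of 0.82 for both by edgeR. No member passed the adjusted test in the colon, against 0.00651% of genes, and 3 of 9 had an unadjusted p under 0.05 (Reg3b, Reg3g and Duox2), against 5.29%. Of all 15362 genes tested in the colon, 0.286% were at least 2-fold higher in replicate 2 in both genotypes, and 2 of 9 members were. Saa1 differed by 1.05-fold and 1.19-fold between the colon replicates, against 3.57-fold and 14.7-fold between the ileum libraries of the same mice.

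Markers that moved with the ileum pattern were as follows, where 0.654% of all genes were lower in replicate 2 by the same test. Of 10 T cell and innate lymphoid markers, 7 were tested and 1 was lower in replicate 2, the granzyme gene Gzma, with a log2 term of -1.56 ± 0.20 (adjusted p of 0.0033). The summed level of that list was 100 and 92.8 CPM in WT ileum and 96.7 and 62.9 CPM in DDX5ΔIEC ileum. Of 6 ileal enterocyte markers, 1 was lower, the bile acid binding protein gene Fabp6, at 2085 and 891 CPM in WT and 2142 and 1019 CPM in DDX5ΔIEC (log2 term of -1.15 ± 0.22, adjusted p of 0.043). None of the 6 Paneth cell, 6 goblet cell or 9 epithelial markers passed. The part of these markers in the result was not tested.

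**Figure D3:**
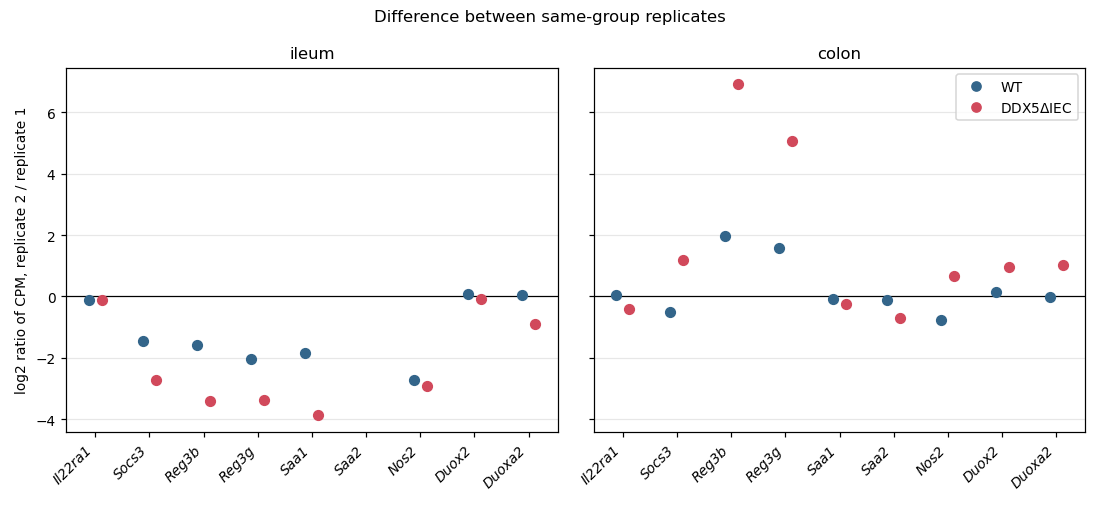
Log2 ratio of CPM of replicate 2 over replicate 1 for each member, in the ileum (left) and the colon (right), for WT and DDX5ΔIEC. In the ileum, Socs3, Reg3b, Reg3g, Saa1 and Nos2 lie below 0 in both genotypes, and in the colon Reg3b and Reg3g lie above 0 in both; Saa2 is not drawn in the ileum, where it had too few counts.

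In the colon, 3 members passed the criterion of the study for a genotype difference, which asks for an absolute log2 fold change of 0.5 or more and an unadjusted p under 0.05. Socs3 was higher in DDX5ΔIEC, and Nos2 and Duoxa2 were lower. The 3 of 9 tested members compare with 6.71% of all 15362 genes, 3.04% higher and 3.67% lower. No gene passed an adjusted p of 0.05 in edgeR's test, in which 12% of genes had an unadjusted p under 0.05. DESeq2 passed 1 member, Nos2, with adjusted p of 0.031, but the share of all genes that DESeq2 passed was not counted.

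Nos2, the inducible nitric oxide synthase, had 390 and 274 counts in WT colon and 83 and 161 counts in DDX5ΔIEC colon, or 20.5 and 12.05 CPM against 4.58 and 7.33 CPM. The log2 fold change of DDX5ΔIEC over WT was -1.43 ± 0.36 (edgeR p of 0.012, adjusted p of 0.32). Duoxa2 had 610 and 726 counts in WT colon and 232 and 569 in DDX5ΔIEC colon, with a log2 fold change of -0.80 ± 0.25 (edgeR p of 0.025, adjusted p of 0.35). Its groups did not overlap, but replicate 2 of DDX5ΔIEC, at 25.9 CPM, was close to WT at 32.0 and 31.9 CPM. The partner Duox2 had 4033 and 5311 counts in WT and 2271 and 5357 in DDX5ΔIEC, its groups overlapped, and its log2 fold change was -0.36 ± 0.20 (edgeR p of 0.14).

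Socs3 had 109 and 91 counts in WT colon and 150 and 414 in DDX5ΔIEC colon. The log2 fold change was 1.39 ± 0.43 (edgeR p of 0.024, adjusted p of 0.34). The excess was largest in replicate 2, at 18.8 CPM against 4.001 CPM in WT replicate 2. Il22ra1 also did not overlap between the genotypes, at 25.5 and 26.6 CPM in WT and 37.9 and 28.3 CPM in DDX5ΔIEC, but its log2 fold change was 0.32 ± 0.15 (edgeR p of 0.081). In all, 4 of 9 members did not overlap between the genotypes in the colon, against 44.6% of all genes, a share near the background.

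The lectins did not pass in the colon, and the sign of their difference turned when either of 2 libraries was left out. Reg3b had 484 and 2277 counts in WT colon and 10 and 1470 in DDX5ΔIEC colon, and Reg3g had 195 and 702 against 16 and 652. The log2 fold changes were -2.05 ± 0.97 and -1.18 ± 0.72 (edgeR p of 0.089 and 0.16). Without DDX5ΔIEC colon replicate 1 they were 0.09 and 0.52, and without WT colon replicate 2 they were 0.41 and 0.59, in fits of 7 libraries without the replicate number. Saa1, with 3882 and 4405 counts in WT and 3989 and 4076 in DDX5ΔIEC, differed by 0.01 ± 0.09 on the log2 scale, and Saa2 by 0.26 ± 0.35.

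The colon calls changed with the fit, and the log2 values with the libraries left out. In a fit of all 8 libraries in 4 groups without the replicate number, none of the 3 passed, against 6.46% of all genes, with p of 0.11 for Socs3, 0.21 for Nos2 and 0.071 for Duoxa2, while the log2 fold changes were 1.496, -1.43 and -0.72. That fit differed in both the libraries and the block. In fits of that kind without 1 library, values spanned 0.77 to 1.96 for Socs3, -1.82 to -1.01 for Nos2 and -1.32 to -0.30 for Duoxa2. Without the replicate block in the colon, Duoxa2 was lost (p of 0.053) and 2 members passed, against 6.77% of all genes.

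In the ileum, 1 of 8 tested members passed the criterion, against 7.35% of all 14068 genes, 3.48% lower and 3.87% higher. At an adjusted p under 0.05, 0 members and 0.697% of genes passed. With no filter on low counts, the criterion passed Saa1 and Reg3b, against 3.72% of genes, and an adjusted p under 0.05 passed Saa1, against 1.09%. Saa1 had 2235 and 416 counts in WT and 1156 and 69 in DDX5ΔIEC, or 103 and 28.8 CPM against 108 and 7.37 CPM, and the groups overlapped. The log2 fold change was -0.76 ± 0.34 (edgeR p of 0.047, adjusted p of 0.40), and replicate 1 alone showed no decrease. The call was lost without the replicate block (-0.19, p of 0.86; 0 members, against 5.59% of genes), under DESeq2 (p of 0.30), with RLE size factors (p of 0.051), with a minimum mean of 10 counts (p of 0.0605) and without the 3 repeat-like genes (p of 0.074). Without DDX5ΔIEC ileum replicate 2 the value was 0.72, and without WT ileum replicate 1 it was 1.01.

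The other 7 tested members did not pass in the ileum. Nos2 was at 174 and 26.2 CPM in WT and 194 and 25.6 CPM in DDX5ΔIEC, a log2 fold change of 0.07 ± 0.14. Il22ra1 differed by 0.01 ± 0.13, Duox2 by -0.12 ± 0.24, Duoxa2 by 0.15 ± 0.23 and Socs3 by 0.17 ± 0.24. Reg3b and Reg3g were at -0.48 ± 0.40 and -0.37 ± 0.31, and turned to 0.15 and 0.11 without the replicate block. Duox2 alone did not overlap between the genotypes in the ileum, against 39.5% of all genes.

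No member passed the test of whether the genotype difference differed between the tissues, and 0.0124% of 16178 genes did (0.00618% with the mouse as a block). The smallest interaction p among members was 0.088, for Duoxa2, whose log2 difference of the 2 genotype effects, ileum minus colon, was 0.93 ± 0.48. For Nos2 it was 1.56 ± 1.40, for Socs3 -1.05 ± 1.13, for Reg3b 1.03 ± 2.18 and for Saa1 -0.22 ± 1.27. At an unadjusted p under 0.05 the member count was also 0 by edgeR, against 4.67% of genes, and it was 0 at an adjusted p under 0.05 by DESeq2. With no filter on low counts, 4 members had an adjusted p under 0.05 (Socs3, Reg3b, Nos2 and Duoxa2), against 0.523% of 40178 genes.

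**Figure D4:**
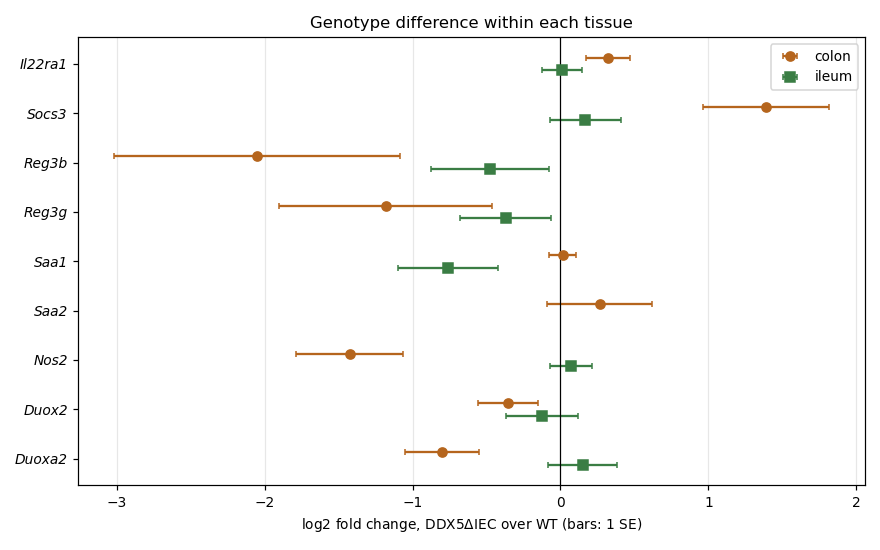
Log2 fold change of DDX5ΔIEC over WT for the members in colon (circles, 9 genes) and ileum (squares, 8 genes), from the edgeR fits with the replicate number as a block and bars of 1 SE. Socs3 lies above 0 and Nos2 and Duoxa2 below 0 in the colon, and the ileum values lie between -0.76 and 0.17.

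In the list for the IL-22 receptor and STAT3 signalling, genes passed the criterion for genotype in both directions. Il10rb, Jak1, Tyk2 and Stat3 were not among them. Of 16 genes for the receptor and STAT3 signalling, 14 were tested in the colon, of which 1 was higher and 1 lower (6.71% of all genes passed), with a median log2 fold change of 0.03 against 0.00 over all genes. Il6ra, the interleukin-6 receptor, was higher by 0.83 ± 0.24, and Socs1, the other main cytokine feedback inhibitor, fell by 1.39 ± 0.41, the opposite direction to Socs3. In the ileum 2 of 13 were higher, Bcl3 and Il18, and 1 was lower, against 7.35% of all genes in either direction. That one was again Socs1, at 18.0 and 19.5 CPM in WT and 9.92 and 6.94 CPM in DDX5ΔIEC, with a log2 fold change of -1.15 ± 0.20 and adjusted p of 0.029 by edgeR. Il10rb, Jak1, Tyk2 and Stat3 lay between -0.02 and 0.15 in the colon and between -0.07 and 0.04 in the ileum, all with an unadjusted p above 0.15 by that test.

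Among other defence effectors, those that passed in the colon were all lower. Of 27 such genes 22 were tested, 10 were lower and 0 higher, against 3.67% and 3.04% of all genes. The median log2 fold change was -0.50 against 0.00 over all genes. The list was chosen with earlier results of these data known, so its excess over all genes is not independent support. Ang4, a bactericidal ribonuclease, was at 1311 and 1500.1 CPM in WT and 199 and 387 CPM in DDX5ΔIEC (log2 fold change of -2.35 ± 0.20, adjusted p of 0.087 by edgeR). Retnlb, the goblet cell protein that binds bacteria, was at 1027 and 1150.1 CPM in WT and 98.7 and 363 CPM in DDX5ΔIEC (-2.53 ± 0.43). The lectin Reg4 fell by 1.72 ± 0.16 and Itln1 by 1.65 ± 0.34. Among oxidant genes the epithelial NADPH oxidase Nox1 fell by 1.09 ± 0.20 and its activator Noxa1 by 0.76 ± 0.16, beside Nos2 and Duoxa2 above. Noxo1, of the same list, did not pass, at 109 and 100 CPM in WT and 121 and 114 CPM in DDX5ΔIEC. The member Duox2 did not pass either. The metalloreductase Steap4 fell by 1.33 ± 0.20. Saa3, Sprr2a1 and Sprr2a3 were the other 3, and none of the 10 had an adjusted p under 0.05.

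**Figure D5:**
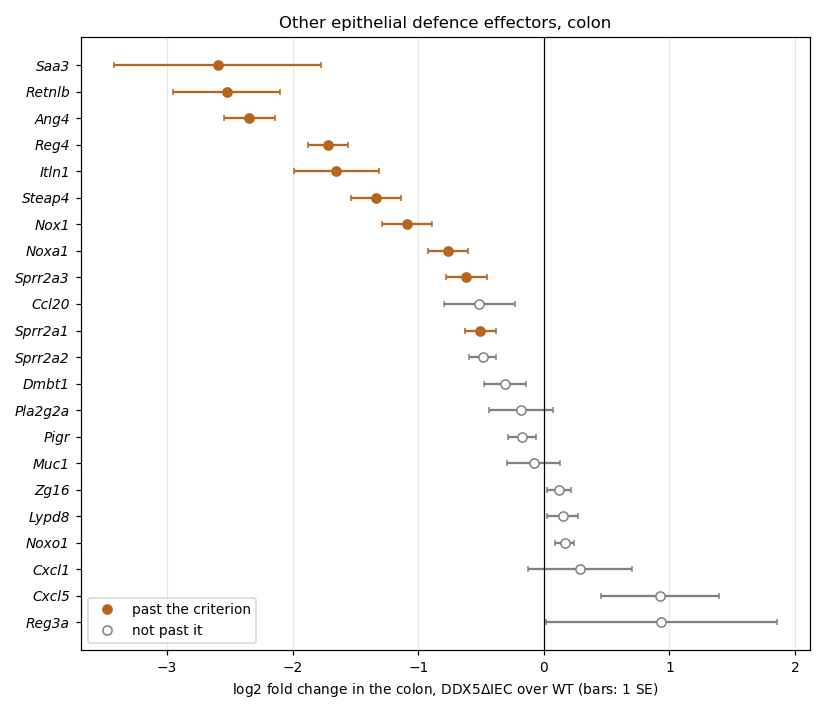
Log2 fold change of DDX5ΔIEC over WT in the colon for the 22 tested genes of the list of other defence effectors, with bars of 1 SE from the edgeR fit. Filled points are the 10 genes past the criterion, all below 0, and open points are the 12 others. The list was chosen with earlier results of these data known.

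In the ileum the same list moved in both directions. Of 19 tested, 2 were higher and 2 lower, against 3.87% and 3.48% of all genes, with a median of 0.04. Pla2g2a, a phospholipase of Paneth cells, rose by 1.05 ± 0.23 and the goblet cell lectin Zg16 by 0.77 ± 0.21, and Sprr2a2 and Sprr2a1 fell by 0.79 ± 0.19 and 0.97 ± 0.24. Microbial sensing and NF-kB genes had 1 lower of 17 in the colon, Nod2 (-0.90 ± 0.22), and 1 lower of 16 in the ileum, Tlr4 (-0.94 ± 0.19). In either direction 6.71% of all genes passed in the colon and 7.35% in the ileum, so these counts are near the background.

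The inducing cytokines were close to absent from these epithelial preparations. Il22 had 1 count in WT ileum replicate 2, 1 in DDX5ΔIEC ileum replicate 2 and 0 in the other 6 libraries. Il17a had 1 count in all 8 libraries together. Of the 12 cytokine and source cell genes, 2 could be tested in colon and 3 in ileum tissue, and 1 was called. It was Tnf in the colon, at 3.72 and 2.68 CPM in WT and 0.882 and 1.23 CPM in DDX5ΔIEC (log2 fold change of -1.58 ± 0.34). Of all genes, 6.71% passed in the colon and 7.35% in the ileum.

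Markers of other cells moved with genotype in the colon beside these genes, where 3.67% of all genes passed as lower and 3.04% as higher. Of 10 T cell and innate lymphoid markers, 8 were tested and 6 were lower in DDX5ΔIEC, among them Ptprc, the pan-leukocyte phosphatase (log2 fold change of -1.43 ± 0.30). Their summed level was 48.0 and 36.9 CPM in WT colon and 8.71 and 19.5 CPM in DDX5ΔIEC colon, and 1 of the 10 was at 0 in DDX5ΔIEC colon replicate 1. Of 6 goblet cell markers 2 were lower and 0 higher, with sums of 44752 and 50460 CPM in WT and 25986 and 40055 CPM in DDX5ΔIEC, and of 6 colonocyte markers 3 were higher and 0 lower. Of 6 neutrophil markers, S100a8, S100a9, Cxcr2, Csf3r and Mpo were at 0 in both WT colon libraries and at most 1 count in those of DDX5ΔIEC, and Ly6g was at 24.8 and 26.1 CPM in WT and 47.5 and 23.6 CPM in DDX5ΔIEC. The part of these cells in the colon differences of Nos2, Duoxa2 and Socs3 was not tested.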

How the data were processed

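IECs of the colon and the ileum were profiled by RNAseq of ribosome-depleted RNA. Per the methods, the authors aligned paired reads to mm10 with STAR 2.6.1a and counted uniquely mapped reads over exons per gene of GENCODE vM19 with featureCounts. The strand setting is not given in the sources used here. The deposited tables, 1 per tissue, hold raw counts, which were used for all tests. They also hold a normalized signal, for which the authors scaled each library with DESeq2 1.18.1 size factors, and their own fold changes and p-values, none of which was used. The other columns, of unit other, hold the deposited gene names and lengths.

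Groups came from the labels. The members and gene lists were chosen with earlier results of these data known. Genotypes were compared within each tissue by edgeR 4.0.16 (R 4.3.3) with the quasi-likelihood test, TMM scaling, filterByExpr with a minimum count of 10 and the replicate number as a block, since the study's model held a harvest covariate. Tissues and the interaction were tested in 1 fit of 8 libraries in 4 groups and called at an adjusted p (Benjamini-Hochberg) under 0.05. Errors of fold changes are SE. A gene that failed the filter had no test in the main fits. Alternatives were DESeq2 1.42.0, RLE scaling, other filters, no block or the mouse as a block, removal of 3 repeat-like genes (Gm10800, Gm10801, Gm21738), and leaving out each library. The replicate-number term was read after the values had been seen. Deviations from the group means correlated with r of -0.0027 between same-numbered genotypes in colon and 0.23 in ileum. The corresponding r was 0.11 in WT and 0.11 in DDX5ΔIEC between the colon and ileum of a mouse, a pairing that comes from the mouse numbers in the study's tables. With 2 libraries per group, an exact two-sided permutation test of a single gene cannot give a p below 0.333. Named genes were all members, 4 receptor and signalling genes, up to 6 genes per list and tissue with the smallest p past the criterion, markers beside a result, and the 5 genes most correlated with Duox2 and with Reg3g. The test was checked on simulated counts with known changes. The simulation gave every gene 1 spread setting and no replicate effect, so it does not cover the spread between these mice. Promoters came from RefSeq (GRCm38.p6) and alignments from Biopython 1.88.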

Additional observations from a re-analysis of the deposited data

Results flagged for a closer look

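Reg3b and Reg3g stood out because the 2 mice of each genotype were ordered one way in the ileum and the other way in the colon. The replicate-number term, replicate 2 over replicate 1 on the log2 scale, was -2.49 in the ileum and 3.50 in the colon for Reg3b. For Reg3g it was -2.70 in the ileum and 2.82 in the colon. In each genotype, the mouse with more Reg3b in the ileum had less in the colon, with 6106 and 25.4 CPM in WT mouse 1, 2033 and 100 CPM in WT mouse 2, 8210 and 0.551 CPM in DDX5ΔIEC mouse 1 and 777 and 66.9 CPM in DDX5ΔIEC mouse 2. The difference between the tissues was not tested, and with 4 mice a correlation was not computed.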

How the results depend on the processing

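Depth limited Lcn2, with at most 4 counts, Saa2 in the ileum, with 2 to 15, and Reg3b and Reg3g in DDX5ΔIEC colon replicate 1, with 10 and 16. The cause of a change under another setting was not tested. The ileum count of 1 member fell to 0 with no replicate block, DESeq2, RLE size factors, a minimum mean of 10 counts, 1 fit of all 8 libraries (which also has no block), removal of the 3 repeat-like genes, or an absolute log2 fold change of 1 as the limit, and rose to 2, of which 1 at an adjusted p under 0.05, with no filter. The colon count of 3 fell to 0 with all 8 libraries in 1 fit without the block, and DESeq2 gave 1 at an adjusted p under 0.05. With no filter, 4 members had an adjusted p under 0.05 in the interaction test. The ileum replicate-number count of 5 was 3 under DESeq2. The share of all genes that passed under DESeq2 was not counted for any result. Without the replicate block the colon count was 2, and with the mouse as a block the tissue counts were 5 in WT and 4 in DDX5ΔIEC and the interaction count 0. Fits without 1 library leave a lone library in 1 group, so only their log2 values are given.

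The ileum genotype value of Reg3b turned to 0.15 with no replicate block and 0.14 with all 8 libraries in 1 fit, that of Reg3g to 0.11 in both, and that of Il22ra1 to -0.028 with no filter. The ileum replicate-number term of Duox2 was -0.014 with no filter. Leaving out each library, the ileum genotype values spanned -0.065 to 0.087 for Il22ra1, -1.49 to 1.36 for Socs3, -2.40 to 1.14 for Reg3b, -2.40 to 1.46 for Reg3g, -3.18 to 1.01 for Saa1, -1.98 to 2.07 for Nos2 and -0.30 to 0.60 for Duoxa2. In the colon they spanned -6.81 to 0.41 for Reg3b, -4.54 to 0.59 for Reg3g, -0.10 to 0.14 for Saa1, -0.075 to 0.61 for Saa2 and -0.83 to 0.13 for Duox2. The DDX5ΔIEC tissue value of Socs3 spanned -0.36 to 2.38. Interaction values spanned -1.51 to 6.97 for Reg3b, -1.99 to 4.66 for Reg3g, -3.20 to 0.98 for Saa1, -0.79 to 1.49 for Saa2, -0.55 to 3.51 for Nos2 and -0.26 to 0.71 for Duox2. Of the single-gene values under the other settings, 336 kept their direction and their side of the threshold, 15 lost and 9 gained a call, and 6 changed sign. That tally does not include the fits without 1 library, in which 35 single-gene values changed sign.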

Other observations

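Of the 92 genes lower in replicate 2 of the ileum by the same term, the following were chosen after their values were seen, and no gene group was tested. Ido1, an interferon-induced enzyme of tryptophan breakdown, was at 43.99 and 9.35 CPM in WT ileum and 39.3 and 7.05 CPM in DDX5ΔIEC ileum, a term of -2.34 ± 0.17 (SE, adjusted p of 0.00012 by edgeR). Gbp2, an interferon-induced GTPase, was at 10.7 and 2.15 CPM in WT and 13.6 and 1.82 CPM in DDX5ΔIEC (-2.56 ± 0.25). Ubd was at 7.92 and 0.485 CPM in WT and 6.08 and 0.107 CPM in DDX5ΔIEC. Ciita, the master regulator of class II antigen presentation, was at 69.5 and 32.8 CPM in WT and 41.7 and 14.6 CPM in DDX5ΔIEC.

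Dbp and Tef, transcription factors of the circadian clock output, were highest in the same mouse in both tissues. Dbp was at 23.9 CPM in the ileum and 35.7 CPM in the colon of DDX5ΔIEC mouse 1, and at 1.94 to 4.38 CPM in the other 6 libraries. Tef was at 71.3 and 76.5 CPM in that mouse and at 10.9 to 30.4 CPM in the others. The colon library of that mouse is the one with 10 Reg3b and 16 Reg3g counts. The relation of these genes to the Reg3b and Reg3g values was not tested.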
